A study of Mus musculus with 7 samples.

Results

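Thymic tuft cells were taken from 7 single-cell RNA libraries as the cells without a UMI of Ptprc (the gene of CD45, which marks blood cells) that held at least 3 of 8 gate genes, namely Trpm5, Lrmp, Avil, Rgs13, Gng13, Alox5ap, Ly6g6f and Sh2d6. A UMI is a tag that counts a single captured RNA molecule. The cells were therefore chosen on their measured values, and 501 of 8453 cells met the rule, out of 8220 cells without Ptprc. The other 7719 cells without Ptprc are called other cells. Levels are the summed UMIs of a gene per 10000 UMIs of a class of cells in 1 library, and log2 ratios were taken after adding 0.1 per 10000 to both classes.

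The libraries hold sorted EpCAM+ CD45- cells of mouse thymus, each from 3 pooled thymi, so each condition is 1 library and no difference between conditions has a replicate. The Aire trace library came from C57BL/6 mice of 6 weeks with Aire-CreERT2 and R26-CAG-Stopfl-zsGreen, given tamoxifen over 10 days in doses of 2 mg on alternate days. In these mice ZsGreen is switched on only in cells in which the Aire gene drives the recombinase while tamoxifen is present, and in their descendants. The other 6 libraries came from C57BL/6 mice injected 3 times within 1 week with 100 ug of antibody. The isotype control was collected 2 weeks later (age 4 weeks) and 10 weeks later (age 12 weeks), and anti-RANKL, which blocks the ligand of the receptor RANK, after 2, 4, 6 and 10 weeks (ages 4, 6, 8 and 12 weeks). The median cell held between 4299.5 and 16809 UMIs by library and the median tuft cell between 4552 and 14858. Between 24 and 137 tuft cells came from a library, with 137641 to 1994461 UMIs in sum, and 50 cell barcodes occur in more than 1 library.

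Tuft cells are chemosensory epithelial cells of gut, airway and thymus that use the taste pathway. A receptor coupled to gustducin releases calcium through phospholipase C beta 2, and calcium opens the cation channel TRPM5. They depend on the transcription factor POU2F3 and are known as a source of IL-25, lipid mediators and acetylcholine, and in the thymic medulla they arise among medullary thymic epithelial cells (mTECs), whose AIRE-expressing members display self antigens to developing T cells.

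The cells fell into a large set with few gate genes and a small set with nearly all of them. Of the 8220 cells without Ptprc, 5217 held none of the gate genes, 2020 held 1 and 482 held 2. Then 110 cells held 3, 38 held 4, 44 held 5, 46 held 6, 88 held 7 and 175 held all 8. The rule cuts in the tail of the large set, since the count of cells was lowest at 4 genes. The 353 tuft cells with 5 to 8 gate genes and the 148 with 3 or 4 are therefore also given apart below, a split chosen after the counts were seen.

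**Figure D1:**
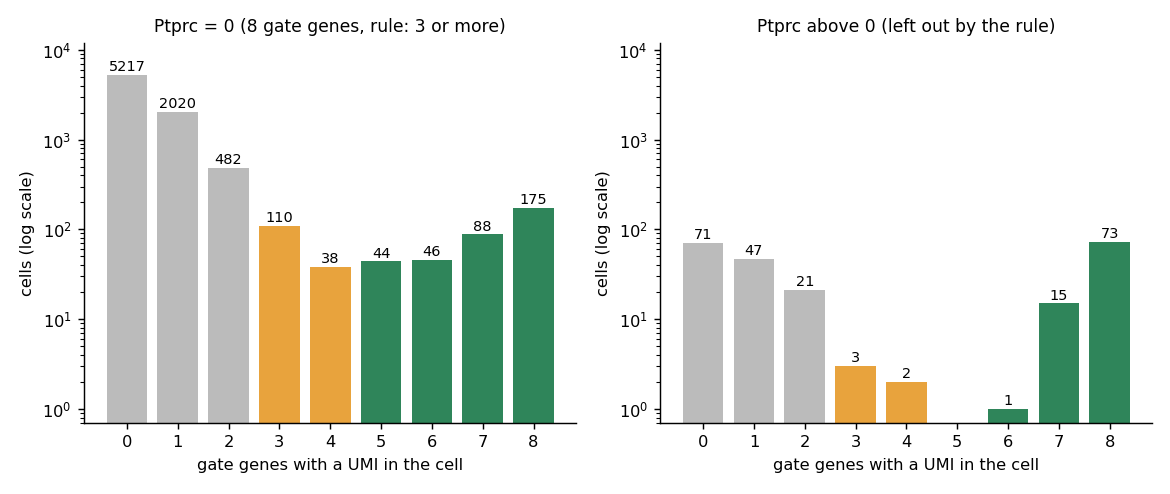
Number of cells (y axis, log scale) by the number of the 8 gate genes with a UMI in the cell (x axis), for cells without Ptprc on the left and with Ptprc on the right; grey bars lie under the rule, orange bars hold 3 or 4 genes and green bars 5 to 8. On the left the bars fall from 5217 cells to 38 cells at 4 genes and rise again to 175 at 8; on the right 73 cells hold all 8.

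At the threshold itself, Pou2f3 stood at 0.103 per 10000 in the cells with 2 gate genes, just outside, and at 0.174 in those with 3, just inside. It was 0.537 with 4 gate genes and 0.907 with 5. Genes that the rule did not use were much lower in the 148 cells with 3 or 4 gate genes than in the 353 with 5 to 8. Gnb3, a G protein subunit of taste signalling, stood at 0.567 against 7.84 per 10000, and 0.0628 in other cells. Dclk1, the microtubule kinase often used to stain tuft cells, stood at 0.330 against 5.72, and 0.306 in other cells. The 148 cells were near other cells in the invariant chain Cd74 (184.8 per 10000, against 173.4 in other cells and 63.5 in cells with 5 to 8 gate genes). They had a median of 16505 UMIs, against 8007 in the 353 cells and 7913 in other cells. A UMI of Aire was found in 78 of the 148 cells (52.7%), in 66 of the 353 (18.7%) and in 37.8% of other cells. Other tuft genes outside the rule were nonetheless higher in the 148 cells than in other cells. 1810046K07Rik stood at 0.390 against 0.0246 per 10000, Ltc4s at 0.822 against 0.166 and Pou2f3 at 0.263 against 0.0643. Il10 was found in 19.6% of the 148 and in 1.97% of other cells. The 148 cells thus lay between the 353 and other cells in 1810046K07Rik, Ltc4s, Pou2f3 and Il10. In Cd74 and in the share with Aire they lay above both, and in Dclk1 they were close to other cells. How far their greater depth put them past the threshold or raised these shares was not tested.

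Of 3081 genes measured beside the gate, 46 (1.49%) were at least 4-fold higher in tuft cells than in other cells in 7 of 7 libraries, and 0 (0%) were at least 4-fold lower. With the 353 cells of 5 to 8 gate genes alone, 81 of 3288 genes (2.46%) were higher by that measure, all 46 among them, and 0 (0%) lower. Since the cells were chosen by expression, these counts describe the cells and carry no test. For each of the 46 genes the 7 levels in tuft cells lay above the 7 levels in other cells without overlap. The 4-fold limit in every library makes that likely, and the share over all genes was not counted. The median log2 ratio over all 3081 genes was 0.04.

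Receptors of taste were found in tuft cells at the start of the pathway. Of 35 bitter receptor genes (Tas2r) looked for by name, 20 are listed in the libraries, and all 20 had a UMI in the 353 tuft cells with 5 to 8 gate genes. Of these cells 117 (33.1%, exact 95% interval 28.3 to 38.3%) held a Tas2r UMI, against 76 of 7719 other cells (0.985%), at nearly equal median depths of 8007 and 7913 UMIs. In the 60 T cells, which held Ptprc, fewer than 3 gate genes and at least 2 of Cd3e, Cd3d, Cd3g and Lck, 1 cell held a Tas2r UMI. These 60 are no clean background, since 26 of them also held Aire. Intervals here and below cover counting error only.

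Bitter receptors were found together in the same cell. At least 2 of them were present in 79 of the 353 cells and at least 3 in 57, and 1 cell held 11. Tas2r105 was the most frequent, in 83 cells with 559 UMIs, followed by Tas2r109 in 55, Tas2r117 in 39 and Tas2r104 in 36. Over the libraries Tas2r105 ranged from 0.269 to 2.87 per 10000 in all tuft cells (median 0.789) and from 0 to 0.0167 in other cells. The umami receptor genes Tas1r1 and Tas1r3 were found in 45 and 48 cells. The sweet receptor gene Tas1r2 was found in 0 of the 353 cells and in 9 of the 7719 other cells. Receptors of this family are similar in sequence, so reads may be split between them.

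The genes that carry the signal inward differed among themselves. Gnb3 was at 2.75 (Aire trace), 4.40 and 10.8 (isotype control week 2 and 10), and 4.62, 9.76, 2.76 and 3.32 per 10000 (anti-RANKL week 2, 4, 6 and 10). In other cells it was at most 0.118, and the median log2 ratio was 4.66 (range 4.25 to 5.97). Gnat3, the alpha subunit gustducin, ranged from 0.218 to 2.82 per 10000 with a median log2 ratio of 3.90 (1.67 to 4.82). It missed the 4-fold limit in 1 library, anti-RANKL week 6, where 1 of the 17 cells with 5 to 8 gate genes held it. Plcb2, the phospholipase of the pathway, had a median log2 ratio of 3.16 (3.02 to 4.04). The channel receptor gene Itpr2 had one of 1.77, and Rgs21, a regulator of G proteins found in taste cells, 2.44. Lower ratios were found for Plcg2 (1.64), Itpr3 (1.08) and the G protein gene Gnai2 (0.62), and Sucnr1 (0.11) and Kcnj16 (0.00) were hardly detected in either class. Of the 10 genes listed for taste transduction, 5 were measured and 2 were called, with a median of 3.16.

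Effector genes of tuft cells were higher as well, with differences between the arms of the response. Il25, the cytokine that activates innate type 2 cells, stood at 0.465, 0.933, 1.57, 0.376, 0.757, 0.581 and 0.870 per 10000 in the libraries in the same order, against at most 0.0125 in other cells (median log2 ratio 2.93, range 2.18 to 4.01). A single cell with 4 gate genes held 81 of the 149 Il25 UMIs of the isotype control of week 2. Without it that library stood at 0.435. Il25 was detected in 118 of the 353 cells (33.4%), in 44 of 7719 other cells (0.570%) while the 60 T cells had 0. A count of 0 allows 5.00% of such cells with a UMI (3 of 60), or 5.96% by the exact interval, and sets no limit on expression. The leukotriene genes Ltc4s (median log2 ratio 4.07, range 3.46 to 5.49) and Alox5 (3.21, range 2.11 to 3.70) were called. So were the prostaglandin genes Ptgs1 (3.36, range 2.70 to 4.53) and Hpgds (2.83, range 2.12 to 3.60).

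Chat, the enzyme that makes acetylcholine, was too low to be counted as measured, yet its levels did not overlap between tuft cells (0.145 to 0.440 per 10000) and other cells (at most 0.00872), with a median log2 ratio of 1.95. It was found in 115 of the 353 cells (32.6%) and in 31 of 7719 other cells (0.402%). Some effectors were near or below other cells. Pla2g4a, which releases arachidonic acid, and Ptgs2, the inducible cyclooxygenase, had a median log2 ratio of -0.12 each, and with 5 to 8 gate genes Ptgs2 was at -1.35. Il13 was at -1.03 with 5 to 8 gate genes and was found in 33 of the 353 cells (9.35%), against 18.4% of other cells. Of 16 effector genes 8 were measured and 5 called, with a median of 2.88. Among the receptors for cytokines, Il17rb, a receptor chain for IL-25, was at 0.218 to 0.489 per 10000 with a median log2 ratio of 1.84, and Il4ra had 0.61. Of 6 cytokine receptors measured, 0 were called and the median was -0.10.

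Il10, known as an inhibitory cytokine, was called although it stood on none of the lists and was noticed after its values were seen. It ranged from 0.436 to 1.35 per 10000 in tuft cells (median 1.11) and from 0.00557 to 0.101 in other cells, a median log2 ratio of 2.95 (2.31 to 3.59). The 2 ranges were apart in all libraries. Of the 353 cells with 5 to 8 gate genes 173 (49.0%) held an Il10 UMI, and no cell held more than 19, against 152 of 7719 other cells (1.97%). Of the 60 T cells 0 held it, with the same limits.

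Among transcription factors 2 of the 18 measured were called, Pou2f3 and 1810046K07Rik, and the median of the list was 0.37. Pou2f3, the factor that tuft cells depend on, stood at 0.929, 0.795, 1.14, 0.747, 1.16, 0.509 and 0.829 per 10000 in the libraries in the order above, with a median log2 ratio of 2.53 (2.14 to 3.09). It was detected in 62.6% of the 353 cells and in 4.53% of other cells. 1810046K07Rik, which encodes a cofactor of POU2F3, ranged from 1.45 to 3.78 per 10000 against 0.0148 to 0.0389, a median log2 ratio of 3.87. The homeobox gene Hmx2 (2.26) and the ETS factors Ehf (2.44), Elf3 (1.95) and Spib (1.14) were higher without being called, as was Sox9 (a median fold of 2.83).

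POU2F3 is a factor of the octamer class, and its letters were looked for in the promoters of the genes that stood apart. The window ran from 250 bases before to 50 bases after the RefSeq start of each gene (GRCm38.p6), and the motif was ATGCAAAT or its reverse complement ATTTGCAT. It was in 2 of the 44 windows found for the 46 called genes and the gate genes (4.55%), those of 1810046K07Rik and Hpgds, and in 45 of 2379 windows of all genes measured (1.89%). None of the 6 windows of gate genes held it (0 of 6). The window of 1810046K07Rik held it at 2 places, 47 and 78 bases before the start. That stretch is shown because it carries both matches, at chr9:51328946-51329024 on the minus strand (GRCm38.p6), just upstream of the gene (chromosome 9, 51289686 to 51328917, GENCODE vM21 annotation), with the matches in capitals.
1810046K07Rik: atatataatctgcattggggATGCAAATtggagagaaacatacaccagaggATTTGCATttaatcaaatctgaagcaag
A match is a description of letters and no measured binding site.

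Structural genes differed among themselves. Espn, which bundles actin in microvilli, ranged from 4.37 to 9.44 per 10000 with a median log2 ratio of 3.32, and Dclk1 from 2.47 to 6.85 with 3.16 (2.13 to 3.97); both were called. The brush border cadherins Cdhr5 and Cdhr2 had 1.77 and 1.55. Other microvillus genes on the list did not stand apart, with 0.64 for Vil1, 0.24 for Pls1, 0.01 for Myo1a, -0.04 for Eps8, -0.23 for Ezr and -0.25 for Ush1c. The simple keratin Krt18 had 0.42 and its partner Krt8 0.43, while Krt19 had 1.91. Of 9 genes measured on this list 2 were called, and the median was 0.43. Among genes of epithelial identity 0 of 11 were called (median 0.15). Epcam, the surface protein used in the sort, was at 6.82 to 9.64 per 10000 in tuft cells, within the range of 4.73 to 9.43 in other cells but for the highest library, while Cd24a (2.16), Cldn7 (1.60) and Eya1 (1.45) were higher.

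**Figure D2:**
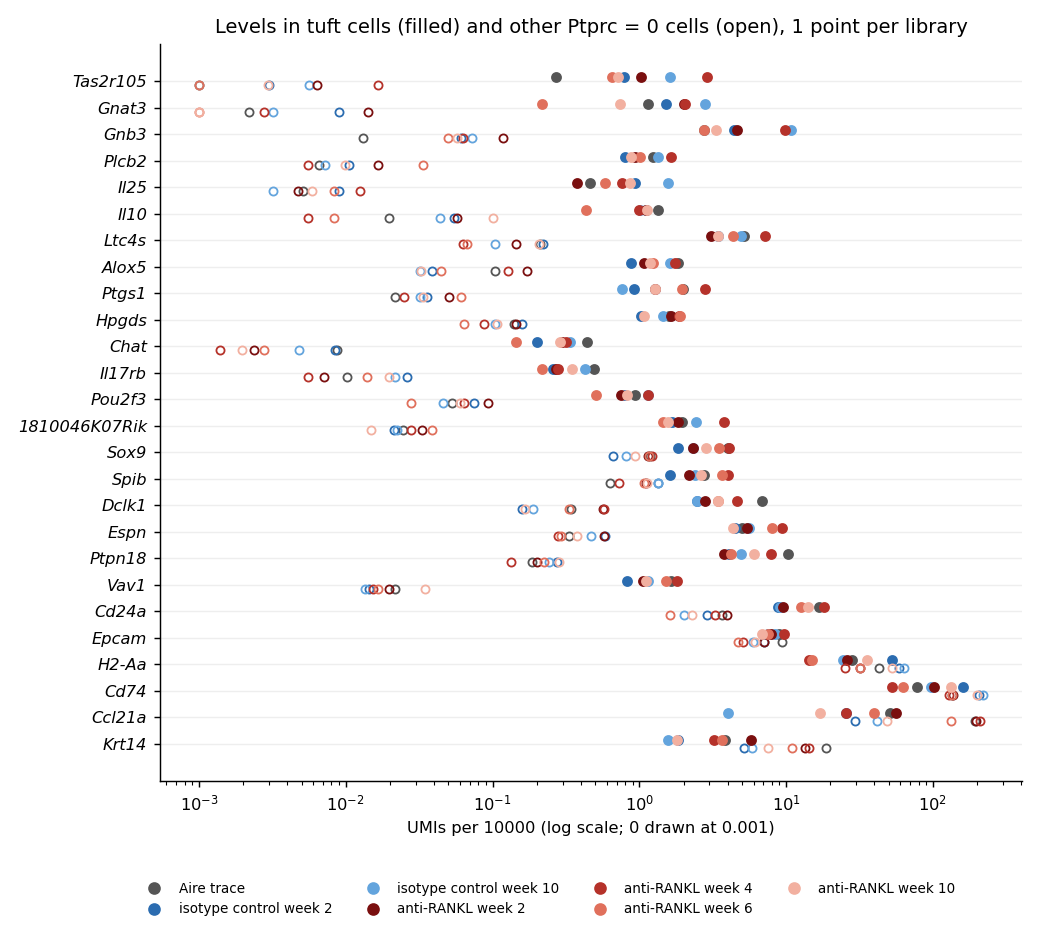
UMIs per 10000 (x axis, log scale, 0 drawn at 0.001) of 26 genes in tuft cells (filled points) and in other cells without Ptprc (open points), 1 point per library and 1 colour for each of the 7 libraries. The points of Gnb3, Ltc4s and Vav1 lie apart, those of Epcam lie close together, and Cd74, Ccl21a and Krt14 have their filled points to the left.

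Genes known for signalling in blood cells formed the list with the highest share of calls. Of 14 measured genes 11 were called (median log2 ratio 3.25), and all 14 were higher in 7 of 7 libraries, as were 760 of all 3081 genes. Bmx, a kinase of the Tec family, ranged from 1.53 to 3.03 per 10000 (median log2 ratio 3.96). The phosphatase Ptpn18 had 3.88 and Ptpn6, which encodes SHP-1, 2.50. The exchange factor Vav1 had 3.45, the adaptor Fyb 3.25, and the parts of phosphoinositide 3-kinase gamma Pik3r5 and Pik3cg had 3.56 and 3.26.

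Markers of blood cells themselves differed by cell type. The 9 listed T cell markers summed to 0.0398 to 0.564 per 10000 in tuft cells and to 0.228 to 0.559 in other cells, and Cd3e was at 0.0313 or less in every library. The 7 myeloid markers summed to 5.59 to 15.0 against 9.52 to 12.5, where Tyrobp stood at 0.238 or less. The 4 B cell markers summed to 0.406 to 0.783 against 0.0501 to 0.307, higher without overlap. Among them Cd79a was at 0.0895 or less, whereas Cd79b, part of the B cell receptor, stood at 0.358 to 0.708 against 0.0292 to 0.226, with a median log2 ratio of 1.57.

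Beyond the lists, the highest ratios belonged to Mctp1, a membrane protein with C2 domains (median log2 ratio 4.64, range 4.26 to 5.48), Ovol3, a zinc finger gene (4.33, range 2.80 to 5.07), and Plac8 (4.29, range 3.65 to 5.71). Plac8 reached 8.01 to 18.4 per 10000, against 0.253 to 0.760 in other cells. Nrgn, which binds calmodulin, had 4.13 and A630073D07Rik 4.00. The ion pump gene Atp2a3 (3.28), the pump regulator Fxyd6 (3.61), the kinase Plk2 (3.83), the tetraspanin Tspan6 (3.46), the chitinase-like Chil1 (3.38) and the carbonic anhydrase Car7 (3.27) were also called. All these genes were above other cells in every library without overlap, which their choice by ratio made likely.

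Genes of antigen presentation were lower in the cells with 5 to 8 gate genes. Cd74 was at 47.3, 65.1, 86.6, 47.5, 31.4, 31.3 and 102.1 per 10000 in the libraries in the order above, against 129.0 to 220.2 in other cells, so the ranges did not overlap (median log2 ratio -1.52). The class II chains H2-Aa and H2-Ab1 had -1.41 and -1.31. Of 15 measured genes of the list 11 were lower in 7 of 7 libraries (median -0.86), while over all genes 682 of 3288 were. The class I gene H2-K1 was at 0.10 and B2m at -0.37. In all 501 tuft cells the differences were smaller, with -0.78 for Cd74 and 7 of 15 genes lower in every library.

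Markers of mTECs were lower too. The chemokine Ccl21a ranged from 4.03 to 55.7 per 10000 in tuft cells and from 29.2 to 209.5 in other cells (median log2 ratio -1.82), and the keratins Krt14 (-1.84) and Krt5 (-1.80) were near it. In the cells with 5 to 8 gate genes Aire had -1.48, the transcription factor Fezf2 -1.54, the receptor gene Cd40 -1.49 and Tnfrsf11a, which encodes RANK, -0.74. Of 8 measured mTEC markers 0 were called in either direction, and 7 were lower in 7 of 7 libraries in these cells (median -1.89). Over all 3288 genes 81 were called higher, 0 were called lower and 682 were lower in 7 of 7, so the lack of calls says little. The 20 lowest genes also held Tagln, Acta2, Mgp, Apoe, Dcn and Gas1 (-2.11), several of which are known from smooth muscle and fibroblasts. S100a8 had the lowest median of the listed names, -2.44, but ranged from -4.59 to 5.32, since the anti-RANKL week 4 library went the other way.

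Of the measured markers of other epithelial types 0 were called, which says little for lists this short beside 1.49% of all genes called higher and 0% lower. The median log2 ratio was -0.65 for cortical epithelial markers (5 measured), -0.999 for cornified cells (5), -0.31 for microfold cells (3) and -0.53 for neuroendocrine cells (2). The neuroendocrine markers together summed to 0.598 to 11.5 per 10000 in tuft cells (median 1.97) and to 2.50 to 6.65 in other cells (3.44). No ciliated or ionocyte marker was measured. Ciliated markers summed to 0.224 to 1.33 per 10000 in tuft cells (median 0.451) and to 0.142 to 0.678 in other cells (0.352), ranges that overlap. Ionocyte markers summed to at most 0.409 and 0.373. Stress genes had a median of -0.33 (10 measured, 0 called), and cell cycle genes -0.16 (6 measured, 0 called). Both Mki67 and Top2a, genes of dividing cells, were found in 7 of the 353 cells with 5 to 8 gate genes (1.98%, interval 0.801 to 4.04%), in 4.82% of other cells and in 11.4% of Aire-positive cells, which at a median of 12639.5 UMIs were the deeper ones.

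Other cells are a mixture that changes between libraries, so the cells with 5 to 8 gate genes were also set against 2 defined classes. Ccl21a-high cells had a value above 4 on the deposited scale, and Aire-positive cells held a UMI of Aire without being Ccl21a-high. Against Ccl21a-high cells 110 of 3379 genes (3.26%) were at least 4-fold higher in every library and 9 (0.266%) at least 4-fold lower. Against Aire-positive cells 89 of 3347 (2.66%) were higher and 1 (0.0299%) lower. The last was S100a8, a calcium-binding protein known from neutrophils and keratinocytes (median log2 ratio -4.35).

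The 2 classes brought out different genes. Against Ccl21a-high cells, Krt5 (-2.75), Krt14 (-3.06), Tagln (-3.32) and Acta2 (-2.72) were at least 4-fold lower in every library; Ccl21a itself (-3.49) had defined the class. Against Aire-positive cells Krt5 was at -0.09. Cd74 was at -1.30 against the former and -2.03 against the latter, and H2-Aa at -1.13 and -1.98. The tight junction gene Cldn7 was at 4.04 against Ccl21a-high cells and 1.15 against Aire-positive cells, and Cystm1 at 5.07 and 2.46. Dclk1 went the other way, with 3.07 and 4.40. Pou2f3 (3.10 and 2.95) and Il25 (3.50 and 3.39) stood about as far from both.

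Among the 353 cells, the presence of Gnat3 went with some other taste genes and not with others, a split chosen after the values were seen. A UMI of Gnat3 was found in 144 of them (40.8%, interval 35.6 to 46.1%), and in 76 of 337 (22.6%) after each cell was thinned to 2000 UMIs. Over all libraries the Gnat3-positive cells had a median of 10521 against 6176 UMIs. They were deeper in 5 of the 6 libraries with at least 10 such cells, by most in anti-RANKL week 2 (12542 against 7472.5) and week 4 (6227.5 against 3350), whereas in the isotype control of week 10 it was 6432 against 8843. How far depth made the split was not tested. By library the share was 25 of 52 (Aire trace), 27 of 46 and 14 of 33 (isotype control week 2 and 10), and 41 of 85, 14 of 48, 1 of 17 and 22 of 72 cells (anti-RANKL week 2, 4, 6 and 10). After thinning it was between 19.4% and 30.3% in the 6 libraries with at least 10 such cells.

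Of 1703 genes compared in those 6 libraries, 209 went the same way in all 6. Higher with Gnat3 were Rgs21 (median log2 ratio 2.68), Bex4 (2.43), Krt19 (2.41), Slitrk6 (1.92), Tas2r105 (1.76), Gnb3 (1.76) and Ovol3 (1.59). Plcb2 was higher in 6 of 6 as well (0.64), as was the gate gene Lrmp (1.19). Lower were Fezf2 (-1.48), H2-Eb1 (-0.97), H2-Aa (-0.91) and Irf8. Trpm5, Dclk1, Ptpn18 and Il25 went up in 3 of 6 libraries and down in the other 3. The umami receptor gene Tas1r3 was higher in 2 of 6, with a median log2 ratio of -0.09. A bitter receptor and gustducin were often found in the same cell: Gnat3 was detected in 85 of the 117 Tas2r-positive cells (72.7%) and in 59 of the 236 others (25%).

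**Figure D3:**
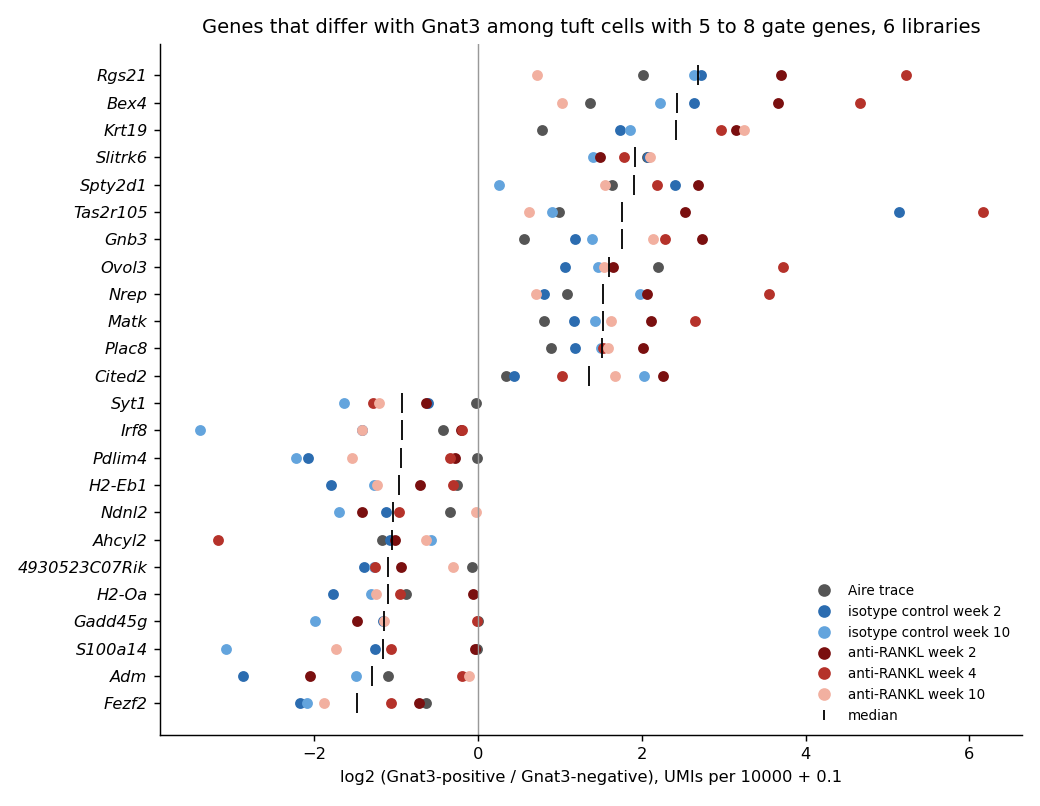
Log2 ratio of UMIs per 10000 (0.1 added) in Gnat3-positive over Gnat3-negative tuft cells with 5 to 8 gate genes (x axis) for the 12 genes with the highest and the 12 with the lowest median among those of 1 direction in all 6 libraries; coloured points are libraries and black ticks the medians. Rgs21 reaches a median of 2.68 and Fezf2 -1.48; the genes were picked for their direction, so that no point lies on the other side of 0 is by construction.

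The share of tuft cells among cells without Ptprc differed between libraries beyond counting error. It was 4.86% in the Aire trace library, 7.80% (interval 6.30 to 9.52%) in the isotype control of week 2 and 3.37% (2.44 to 4.53%) in that of week 10. After anti-RANKL it was 11.6% (9.80 to 13.5%) at week 2, 3.58% (2.69 to 4.67%) at week 4, 3.34% (2.15 to 4.93%) at week 6 and 8.02% (6.53 to 9.73%) at week 10. At both times with a control the share after anti-RANKL was the higher. With a single pool per condition, neither difference can be told apart from one between pools or sorts.

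The size of these shares moved with the gate and the depth. With at least 5 gate genes they were 3.95% (Aire trace), 4.07% and 2.65% (isotype), and 7.18%, 3.31%, 2.36% and 6.14% (anti-RANKL week 2, 4, 6 and 10). After thinning every cell to 2000 UMIs, with 18 of the 501 tuft cells too shallow to keep, they were 3.79%, 3.90%, 2.57%, 6.33%, 2.31%, 2.13% and 5.63% of the cells without Ptprc that had at least 2000 UMIs (1340 of 1451 at anti-RANKL week 4 and 658 of 719 at week 6, all cells in the others). At weeks 2 and 10 the share after anti-RANKL stayed above the control of that week in each of these counts.

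**Figure D4:**
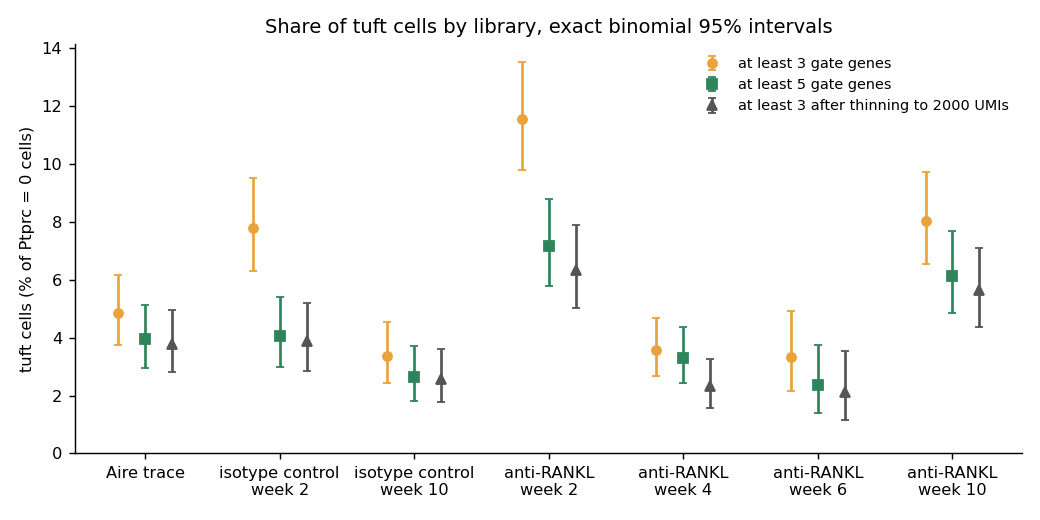
Tuft cells as a percent of cells without Ptprc (y axis) in each of the 7 libraries (x axis), with at least 3 gate genes (circles), at least 5 (squares) and at least 3 after thinning to 2000 UMIs (triangles); bars are exact binomial 95% intervals. The circle of anti-RANKL week 2 is highest at 11.6%, and 4 libraries, Aire trace among them, have circles under 5%.

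Shares add to a whole, and the other classes moved far more. Aire-positive cells made up 60.4% and 61.4% of the cells without Ptprc in the isotype controls, and 8.45%, 2.41%, 22.4% and 51.2% after anti-RANKL. Per 100 Aire-positive cells there were 6.75 and 4.31 tuft cells with 5 to 8 gate genes in the controls, and 85.0, 137.1, 10.6 and 12.0 after anti-RANKL. Per 100 Ccl21a-high cells there were 29.5 and 15.9 of the same cells in the controls, and 12.9, 5.11, 5.12 and 30.3 after anti-RANKL. The direction at week 2 therefore reversed with the class taken as denominator, and numbers of cells per thymus are not in these data.

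The condition of no Ptprc removed cells with a full set of gate genes. Of the 233 cells with a Ptprc UMI, 89 (38.2%, interval 31.9 to 44.8%) held 5 to 8 gate genes. Counted the other way, Ptprc was found in 89 of 442 cells with 5 to 8 gate genes (20.1%) and in 139 of 7858 cells with fewer than 3 (1.77%), at median depths of 8336.5 and 7967.5 UMIs. After thinning the shares were 6.82% and 0.571%. By library Ptprc was in 35.8% (Aire trace), 13.2% and 5.71% (isotype), and 22.7%, 12.7%, 10.5% and 19.1% (anti-RANKL) of cells with 5 to 8 gate genes, against 1.13% to 3.02% of cells with fewer than 3.

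In the 89 cells Cd3e stood at 0.0517 per 10000 from 5 UMIs, against 0.0113 in the 353 cells and 0.0186 in other cells. Lck stood at 0.0621, against 0.0450 and 0.103. The 9 T cell markers in the files summed by library to 0 to 3.44 per 10000 (median 0.0897), against at most 0.415 in the 353 and 0.559 in other cells. The myeloid markers summed to 6.61 to 19.8 (median 7.80), against at most 11.7 and 12.5. The part of blood cells in these 89 was not tested. Epcam stood at 11.1, against 8.57 in the 353 cells. The tuft genes were at levels like those of the 353 cells without Ptprc, with Pou2f3 at 1.12 (1.27 in the 353), Ltc4s at 6.51 (6.09) and Dclk1 at 9.88 (5.72). At least 15 of the 89 cells came from each of 3 libraries, Aire trace and anti-RANKL week 2 and 10, and 595 of 1698 genes went the same way in all 3. Higher with Ptprc were Hamp2 (median log2 ratio 2.02), Smim6 (2.00), Tspan8 (1.89) and Gp2 (1.63). Lower were Ovol3 (-2.96), Nrep (-2.77), Stmn1 (-1.99), Krt19 (-1.06) and Gnb3 (-0.98). These genes, too, were chosen after their values were seen.

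In the Aire trace library ZsGreen marks cells with a history of Aire. ZsGreen was found in 52 of 64 tuft cells (81.3%, interval 69.5 to 89.9%), in 174 of 203 Aire-positive cells (85.7%, 80.1 to 90.2%), in 312 of 859 Ccl21a-high cells (36.3%, 33.1 to 39.6%) and in 96 of 192 remaining cells (50%). The background is high: it was found in 20 of 39 Ptprc-positive cells with fewer than 3 gate genes (51.3%) and in 10 of the 16 T cells of this library. Median depths were 8979 UMIs for tuft cells, 14671 for Aire-positive and 8617 for Ccl21a-high cells.

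At equal depth tuft cells and Aire-positive cells had nearly the same share. Thinned to 2000 UMIs, ZsGreen remained in 31 of 64 tuft cells (48.4%, interval 35.8 to 61.3%), in 48.8% of Aire-positive, 11.5% of Ccl21a-high, 28.1% of remaining and 23.1% of the Ptprc-positive cells with fewer than 3 gate genes. As a level, ZsGreen stood at 3.86 per 10000 in tuft cells, 4.57 in Aire-positive, 0.793 in Ccl21a-high, 2.79 in remaining and 1.61 in those Ptprc-positive cells. The thinned interval of tuft cells lay above that of Ccl21a-high cells (9.47 to 13.8%) but overlapped that of the background cells (11.1 to 39.3%). By level the counting intervals of tuft cells (3.45 to 4.31 per 10000) and of these Ptprc-positive cells (1.28 to 1.98) did not overlap. The 16 T cells, 6 of which also held Aire, stood at 2.73 (2.10 to 3.49), overlapping tuft cells, and 7 of them (43.8%) kept ZsGreen after thinning.

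Aire itself was mostly not detected in the marked tuft cells. An Aire UMI was found in 13 of the 64 tuft cells, all with ZsGreen, and 39 (60.9%) held ZsGreen without Aire. With 5 to 8 gate genes 40 of 52 cells (76.9%) held ZsGreen and 8 held Aire. Of 16 tuft cells whose Ccl21a was above 4, 14 held ZsGreen. The 29 Ptprc-positive cells with 5 to 8 gate genes of this library held it in 23 cases (79.3%, and 37.9% after thinning).

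**Figure D5:**
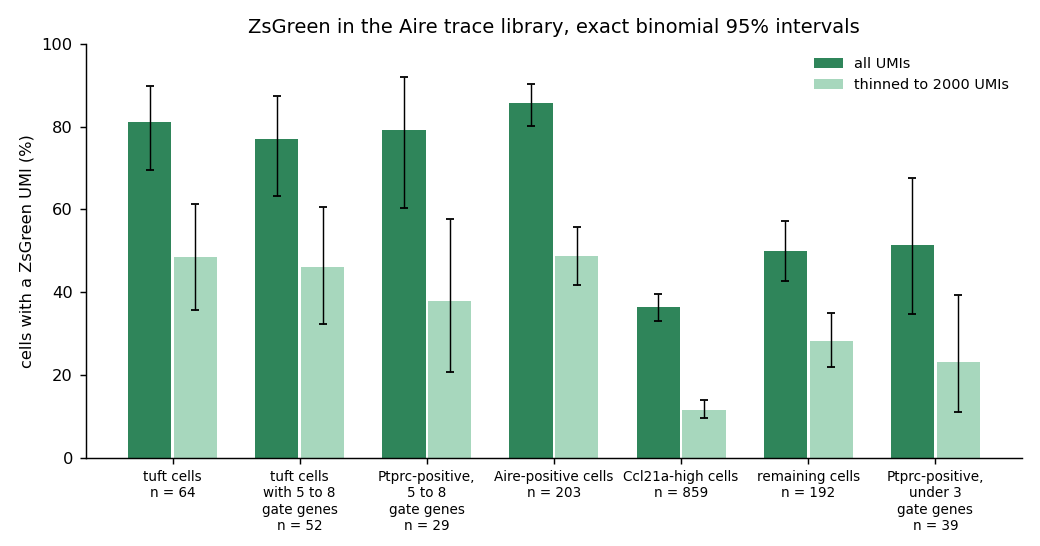
Percent of cells with a ZsGreen UMI (y axis) in 7 classes of cells of the Aire trace library (x axis, n below each), from all UMIs (dark bars) and after thinning to 2000 UMIs (light bars), with exact binomial 95% intervals. Tuft cells (81.3%, 48.4% thinned) stand beside Aire-positive cells (85.7%, 48.8% thinned) and Ccl21a-high cells are lowest (36.3%, 11.5% thinned).

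Within tuft cells a small number of genes separated all anti-RANKL from all isotype libraries. Of 2115 genes, 2 (0.0946%) were at least 2-fold higher in each of the 4 anti-RANKL libraries than in both controls, and 1 (0.0473%) was at least 2-fold lower. These counts depended on single libraries, with 15 higher without anti-RANKL week 10, 11 without isotype week 2 and 9 without isotype week 10. For lower genes there were 41 without isotype week 10, 10 without anti-RANKL week 10 and 7 without isotype week 2, and 2 without any 1 of the others. The 2 were Tagln and Acta2, genes known from smooth muscle. Tagln was at 0.263 and 0.201 per 10000 in the controls and at 1.02, 1.55, 1.16 and 0.686 after anti-RANKL. The Aire trace library, from mice given no antibody, stood at 1.60 for Tagln and at 1.38 for Acta2, above both controls. In other cells of each library Tagln was higher than in tuft cells, and it too lay above both controls after anti-RANKL. There it was at 0.911 and 1.15 in the controls, at 4.53, 10.2, 7.80 and 1.38 after anti-RANKL and at 3.92 in Aire trace. The lower gene was Klk14, a secreted protease, at 1.38 and 0.470 in the controls and at 0.0702, 0, 0 and 0.102 after anti-RANKL. In Aire trace Klk14 was at 0.110. With 5 to 8 gate genes its control of week 2 was at 0.0322, and the ranges overlapped.

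With 5 to 8 gate genes, 8 of 2248 genes (0.356%) were higher and 2 (0.089%) lower. Higher were Ccl21a, Cxcl12, Krt5, Pltp, Shisa2, Acta2, Myl9 and Tpm2, and lower were Saa3, an acute phase protein, and Cst6, a protease inhibitor. In the Aire trace library, from mice given no antibody, each of the higher genes also lay above both controls. Ccl21a was there at 51.3, Krt5 at 4.78 and Pltp at 2.48 per 10000. Saa3 (2.11) and Cst6 (1.45) of Aire trace lay above all 4 anti-RANKL libraries. Ccl21a was at 8.90 and 4.88 per 10000 in the controls and at 41.7, 26.9, 49.0 and 20.2 after anti-RANKL. In other cells it was at 29.2 and 41.8 against 197.2, 209.5, 133.6 and 48.6, and in Ptprc-positive cells with fewer than 3 gate genes at 16.3 and 19.0 against 54.4, 129.4, 43.3 and 16.0. Saa3 was at 3.62 and 1.24 against 0.0596, 0.0447, 0.139 and 0.241, and in other cells at 3.95 and 2.37 against 1.26, 0.0557, 0.412 and 2.39. In other cells Tpm2, Saa3 and Cst6 overlapped, while the remaining higher genes also lay above both controls in all 4 anti-RANKL libraries, without a 2-fold limit. The share of all genes that did so in other cells was not counted, so this is a description only. The part of free RNA in the droplets was not tested.

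Among genes within the 2-fold limit, Grk6, a kinase that desensitizes receptors, showed little of such a change in other cells. In tuft cells it was at 0.307 and 0.358 per 10000 in the controls and at 0.797, 1.43, 1.16 and 0.665 after anti-RANKL. With 5 to 8 gate genes the gap was smaller, at 0.628 and 0.412 against 1.30, 1.52, 2.08 and 0.865. Aire trace, without antibody, had Grk6 at 0.697 in tuft cells and at 0.849 with 5 to 8 gate genes. In other cells it lay between 0.0910 and 0.136 in these 6 libraries. The genes of the tuft program stayed within the limit as well. The levels of Pou2f3, Ltc4s and Gnb3 given or drawn above overlapped between controls and anti-RANKL libraries. Those of Il25 were lower after anti-RANKL than in both controls, but this rested on 1 cell: without it the isotype control of week 2 stood at 0.435 per 10000, below 3 of the 4 anti-RANKL libraries. With 5 to 8 gate genes Il25 overlapped (1.06 and 2.22 against 0.666, 0.849, 1.11 and 1.21), whereas Pou2f3 was lower throughout, at 1.67 and 1.49 per 10000 in the controls and at 1.20, 1.25, 0.692 and 1.01 after anti-RANKL. Aire trace, without antibody, had Pou2f3 at 1.21 in the cells with 5 to 8 gate genes.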

How the data were processed

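Droplet-based libraries of sorted EpCAM+ CD45- thymic cells were sequenced on 7 pools of 3 thymi, per the labels. The authors counted UMIs with Cell Ranger v2.2.0 on mm10, with the ZsGreen transcript added for Aire trace, filtered cells on genes per cell and mitochondrial reads in Seurat v2.3.4 and deposited values on a natural log scale, ln(1 + UMIs per 10000). The methods give another scale factor, but the scaled values of every cell summed to 10000, and whole UMIs were recovered in every cell (tolerance 0.001). Tables joining several libraries were left aside. No doublet caller was run, and the paper's text names no such step.

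UMIs were summed by class and library in Python 3.11.15 (numpy 2.4.6, pandas 2.3.3, scipy 1.17.1; matplotlib 3.10.9). A gene was measured if listed in all libraries with at least 0.5 UMIs per 10000 in either class as the median over libraries, and for anti-RANKL if it reached 1 in any tuft library. A call needed 4-fold in every library, or 2-fold between all anti-RANKL and both isotype libraries. The step was tested on simulated data. Cells were thinned without replacement, which left out 177 cells of under 2000 UMIs. Intervals are exact binomial (95%). Alternatives changed the gate, the fold, the amount added, the limit on low values, the averaging, the depth and the libraries kept. No test was run, since a condition is 1 library and the cells were chosen on expression.

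Named were the gate genes, the genes of the lists, the 25 highest and 20 lowest by median log2 ratio (highest with a UMI in 25% of tuft cells, lowest with 2 per 10000 in other cells), 10 per direction against each of the other classes, and 8 per direction after anti-RANKL. Exceptions are named where they occur, and some genes within the rule are not reported here. The members and lists were chosen with earlier results of these data known.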

Additional observations from a re-analysis of the deposited data

Results flagged for a closer look

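Cells that the rule leaves out carried the signal of tuft cells. Of the 233 cells with a Ptprc UMI, 89 held 5 to 8 of the gate genes, 20.1% of all cells with that many gate genes, against 1.77% with Ptprc among cells with fewer than 3. Without the condition on Ptprc the share of tuft cells in the Aire trace library was 6.78% in place of 4.86%. Their Cd3e stood at 0.0517 per 10000. The source of their Ptprc UMIs was not tested.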

How the results depend on the processing

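No paired analysis was possible between conditions because each is 1 library and the labels number no replicates. The ratios of tuft to other cells are already taken within each library, and they carry no test since expression chose the cells. The gate moved the shares most. With 2 gate genes they were 9.26% (Aire trace), 17.8% and 5.85% (isotype week 2 and 10), and 23.5%, 5.86%, 8.48% and 13.9% (anti-RANKL week 2, 4, 6 and 10). With 4 gate genes the week 2 libraries fell to 4.87% (isotype) and 8.45% (anti-RANKL). With 5, a choice made after the data were seen, isotype week 2 was at 4.07% and anti-RANKL week 2 and 10 at 7.18% and 6.14%. After thinning, isotype week 2 was at 3.90% and anti-RANKL at 6.33%, 2.31%, 2.13% and 5.63%. Without the condition on Ptprc the Aire trace share was 6.78%.

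The count of higher genes was 129 at 2-fold, 13 at 8-fold, 1 with 1 per 10000 added in place of 0.1, 71 with 4 gate genes and 81 with 5, and 46 to 57 without 1 of the libraries. Lower genes numbered 15 at 2-fold. ZsGreen was in 48.4% of tuft cells after thinning and in 65.6% with at least 2 UMIs.

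After anti-RANKL, 5 genes were higher and 4 lower at 1.5-fold, 4 and 2 with 4 gate genes, and 8 and 2 with 5. Leaving out 1 library gave 2 to 15 higher genes (15 without anti-RANKL week 10, 11 without isotype week 2, 9 without isotype week 10) and 2 to 41 lower genes (41 without isotype week 10, 10 without anti-RANKL week 10, 7 without isotype week 2, and 2 without anti-RANKL week 2, 4 or 6). At these depths a gene without a UMI may still be expressed, and 24 cells at anti-RANKL week 6 limit that library.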

Other observations

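A single cell held most Il25 molecules of the tuft cells with 3 or 4 gate genes. It came from the isotype control of week 2 and held 81 of their 91 Il25 UMIs among 32180 UMIs in all. It also held 24 Aire UMIs, 990 Cd74 UMIs and 0 Pou2f3 UMIs, with Lrmp, Rgs13, Gng13 and Sh2d6 as its 4 gate genes.

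Neuroendocrine genes stood out in a few Ptprc-positive cells with 5 to 8 gate genes. Chga was at 29.8 per 10000 in those of the Aire trace library, against 0.229 in its cells without Ptprc that held 5 to 8 gate genes. It was at 1.61 and 0.291 in the Ptprc-positive ones of anti-RANKL week 2 and 10. A single cell held 1198 of the 1248 Chga UMIs of that library's 29 such cells, and in anti-RANKL week 2 a single cell held 78 of 79 UMIs of its relative Chgb.

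Tslp, the cytokine of epithelial alarm responses, was found in 40 of the 353 tuft cells with 5 to 8 gate genes (11.3%) and in 2.18% of other cells. Its summed level rested on few cells, since 32 of its 104 UMIs in the 353 cells were in 1 cell.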
